A study of Mus musculus with 10 samples.

Results

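The genes described here are 10 members of the ATF4 stress programme, read in mouse embryonic stem cells that carry a Sox17 transgene: Atf4, Chac1, Nupr1, Mthfd2, Cebpb, Psat1, Asns, Trib3, Ddit3 and Sesn2. They were chosen by name, with earlier results of these data known. Every probe whose platform symbol is one of these names was taken. This gave 14 probes of the 25697 on the array and 10 of its 16593 named genes. All 14 probes lay above the background limit, the intensity of 10.6 that 95% of noise stays under, on all 10 arrays. Total RNA came from KH2 cells, a mouse embryonic stem cell line built for doxycycline-controlled transgenes, here Sox17 with a V5 tag. The 5 arrays titled Sox17(-) are labelled as controls and are called uninduced 1 to 5. The 5 titled Sox17(+) are labelled as expressing Sox17-V5, after 48 h of doxycycline, and are called induced 1 to 5. Every sample, controls included, carries the transgene line and has doxycycline in its treatment field, although the design text calls the controls not induced. The groups were therefore taken from the titles, and 48 h of doxycycline was taken to apply to the arrays labelled induced only. Separate cultures are not stated for the replicates, nor is it given whether the line is 1 clone, so p values measure the spread between these samples, which may be technical.

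ATF4 is the transcription factor of the integrated stress response. Kinases that sense amino acid shortage, unfolded protein in the endoplasmic reticulum, viral RNA or heme lack phosphorylate the initiation factor eIF2alpha. This slows translation as a whole while ATF4 protein is made from its mRNA more efficiently. ATF4 then pairs with C/EBP-family partners on composite elements and raises genes for amino acid synthesis and uptake, for glutathione turnover and for feedback on the response itself.

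The composite element, known as CARE, was searched for as TGATGNAA on both strands in the RefSeq window from 250 bases before to 50 bases after each gene start. The 10 genes have 11 such windows, since Psat1 has 2, and 4 of the 11 held the letters, beside 3.97% of all 32851 windows. These are Chac1, Nupr1, Asns and Trib3, which are shown because their values differ widely below although each holds a match. The first 3 are printed from position -250 to -1 and Trib3 from 1 to 30, 5′ to 3′ on the gene's strand in build GRCm38.p6, with the matched letters in capitals.
Chac1, chr2:119350992-119351241, plus strand: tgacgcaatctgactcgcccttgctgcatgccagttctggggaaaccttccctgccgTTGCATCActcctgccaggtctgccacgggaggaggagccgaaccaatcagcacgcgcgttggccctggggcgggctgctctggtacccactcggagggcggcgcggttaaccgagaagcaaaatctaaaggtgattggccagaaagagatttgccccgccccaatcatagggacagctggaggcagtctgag
Nupr1, chr7:126625471-126625720, minus strand: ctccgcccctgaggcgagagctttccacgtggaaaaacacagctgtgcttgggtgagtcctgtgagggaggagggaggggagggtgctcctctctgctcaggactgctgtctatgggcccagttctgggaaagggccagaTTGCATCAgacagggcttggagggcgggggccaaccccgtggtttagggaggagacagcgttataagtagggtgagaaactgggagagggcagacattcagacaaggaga
Asns, chr6:7693210-7693459, minus strand: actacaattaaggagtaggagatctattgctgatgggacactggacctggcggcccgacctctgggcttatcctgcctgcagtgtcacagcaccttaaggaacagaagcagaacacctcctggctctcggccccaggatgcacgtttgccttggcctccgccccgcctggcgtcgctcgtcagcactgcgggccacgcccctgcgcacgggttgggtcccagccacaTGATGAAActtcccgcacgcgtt
Trib3, chr2:152344031-152344060, minus strand: agattagctcaggtTTACATCAgccgggcg
The match lies at -193 to -186 in Chac1, -110 to -103 in Nupr1, -23 to -16 in Asns and 15 to 22 in Trib3. Chac1 and Nupr1 hold the same 8 letters, in the reverse orientation, while Asns holds a forward match and Trib3 a reverse match with other letters at the free position. The cyclic AMP element TGACGTCA was in 0 of the 11 windows (1.79% of all windows). The endoplasmic reticulum stress element ERSE was in 0 of them too (0.119% of all), and in 6 of 13 windows of the chaperone genes listed further on. A match is only a stretch of letters, and no match says only that these letters are not in this window.

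Before the members are compared, the arrays themselves need describing, because they do not follow their labels. Sox17, the gene the induction should raise, read 30.5 to 32.6 on uninduced 1 to 3, 60.6 and 65.3 on uninduced 4 and 5, 67.3 on induced 1 and 11.99 to 16.6 on induced 2 to 5 (probe ILMN_2747986, whose position relative to the transgene is not known here). By the background pattern of 1356 chemosensory receptor probes, induced 2 to 5 form a set of their own, and induced 1 lies with the 5 arrays labelled uninduced. The replicate numbers in the descriptions also restart after title 3 of each label. Titles 1 to 3 are called run 1 and titles 4 and 5 run 2. What a run stands for is not given. Results are therefore read in the title groups uninduced 1 to 3, uninduced 4 and 5 with induced 1, induced 2 and 3, and induced 4 and 5. "Labelled induced" is meant throughout as a label only. Apart from the plain comparison of labels, differences come from a single fit with separate means for uninduced run 1, uninduced run 2, induced 1, induced 2 and 3, and induced 4 and 5. A difference passed the test where limma's p, adjusted over all 14985 tested probes, was under 0.05. The main contrast sets induced 2 to 5 against uninduced 1 to 5 at matched runs. In that contrast label and array set coincide and cannot be told apart.

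Chac1 is a gamma-glutamyl cyclotransferase that breaks down glutathione and is a late target of ATF4. It read 2235, 1882, 1931, 1651 and 1783 on uninduced 1 to 5 and 1814 on induced 1. On induced 2 to 5 it read 234, 234, 203 and 202. The 4 low arrays lay far under the other 6, and induced 1 lay inside the range of the arrays labelled uninduced. The uninduced mean of 1896 ± 217 (SD, n = 5) was 8.69 times the mean of induced 2 to 5, 218 ± 18.2 (SD, n = 4). On the log2 scale of intensity plus 16 the difference at matched runs was -3.002 ± 0.07 (SE, limma adjusted p = 1.58e-07), and it was -3.02 in run 1 and -2.99 in run 2. Of 10087 tested genes, Chac1 had the most negative difference, rank 1 in the matched contrast and in the comparison of labels, and this rank was known when the genes were chosen. Between the runs it moved far less, by -0.23 ± 0.09 within uninduced and -0.19 ± 0.10 within induced 2 to 5. Neither difference passed the test. The runs did not overlap in either, but these groups are small and the share of all genes without such overlap was not computed. The lack of overlap is therefore not read as a result.

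**Figure D1:**
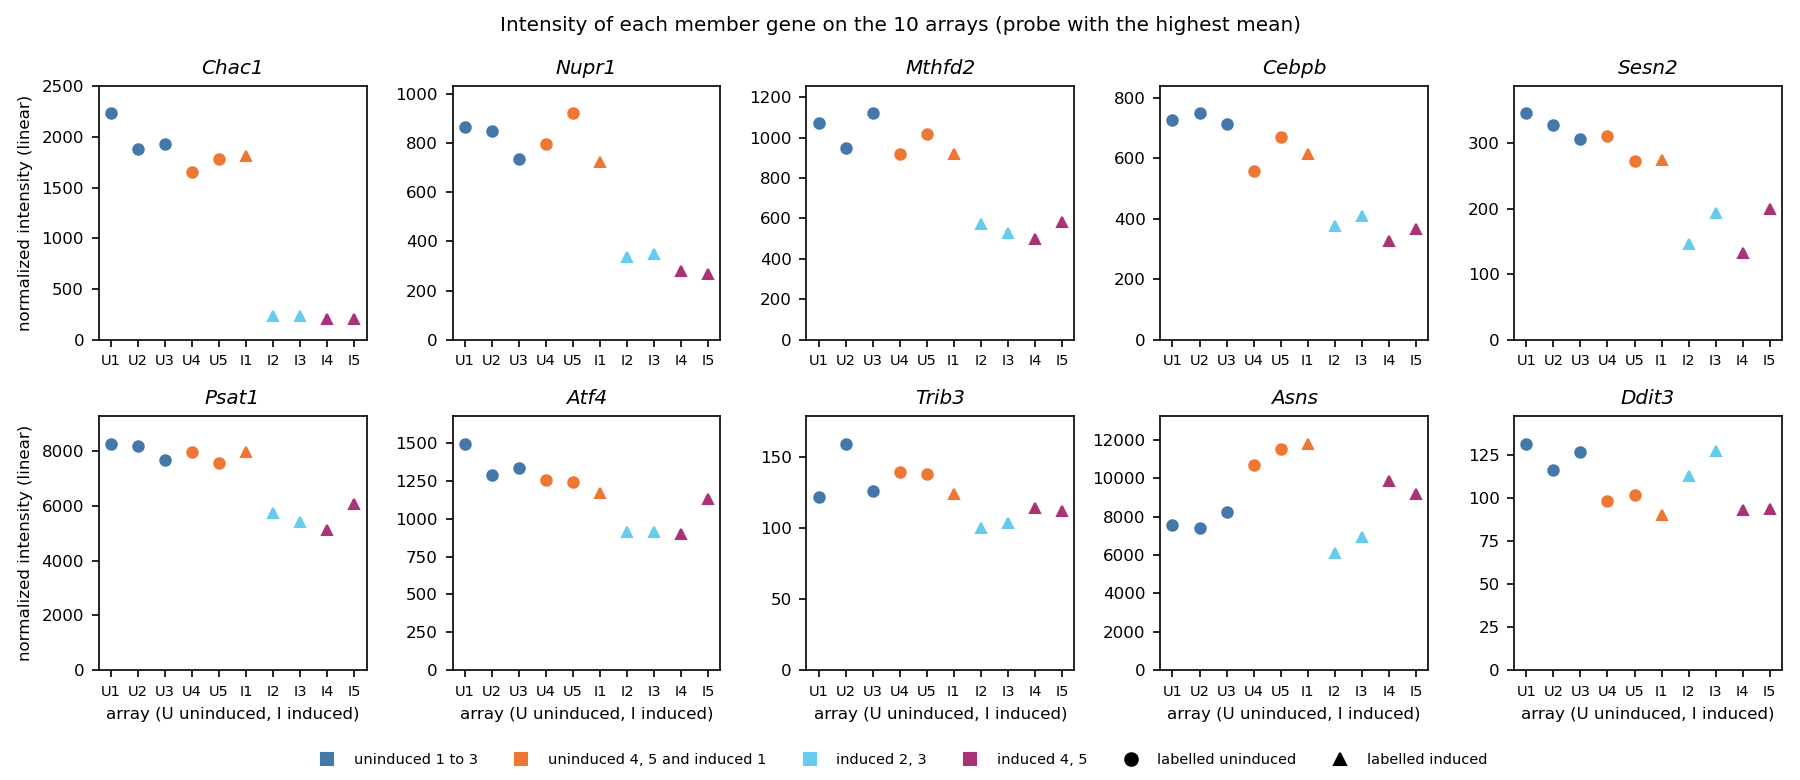
Normalized linear intensity of each member gene (probe with the highest mean) on uninduced arrays U1 to U5 and induced arrays I1 to I5; each point is 1 array, colours give the title groups and shapes the labels. Chac1 stands at 202 to 234 on I2 to I5 and at 1651 or more on the other 6 arrays, whereas Asns separates the title groups within each array set.

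Nupr1, a small chromatin-associated stress protein, came next. It read 866, 851, 736, 796 and 922 on uninduced 1 to 5, 723 on induced 1, and 338, 349, 278 and 268 on induced 2 to 5. All arrays labelled induced lay below all labelled uninduced, but induced 1 did so by a small margin only. The fall at matched runs was -1.40 ± 0.08 (adjusted p = 7.87e-06), rank 50 of the 10087 genes. Run 2 minus run 1 was 0.07 ± 0.10 within uninduced and -0.31 ± 0.11 within induced 2 to 5. Neither passed the test, nor did the gap between them (-0.38 ± 0.15, adjusted p = 0.380).

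Among the transcription factors, Atf4 itself fell by a smaller amount than Chac1 or Nupr1. It read 1497, 1291, 1338, 1254 and 1243 on uninduced 1 to 5, 1169 on induced 1, and 913, 915, 902 and 1130.0 on induced 2 to 5. The groups did not overlap, yet induced 5 stood close to induced 1. The difference at matched runs was -0.44 ± 0.08 (adjusted p = 0.00183). It was -0.58 (adjusted p = 0.00360) within run 1 and -0.30 within run 2, where it did not pass (adjusted p = 0.0769), and the gap between the runs did not pass the test of that difference (0.28 ± 0.16, adjusted p = 0.557). ATF4 is controlled largely at translation, which these arrays do not measure.

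Cebpb, a C/EBP factor that dimerizes with ATF4, read 727, 749.97, 713, 560.2 and 669.8 on uninduced 1 to 5 and 613 on induced 1. On induced 2 to 5 it read 378, 410.1, 328 and 365. Induced 1 again fell inside the uninduced range and induced 2 to 5 below it, and the matched difference was -0.83 ± 0.07 (adjusted p = 4.48e-05). Uninduced 4 and 5 were below uninduced 1 to 3, and induced 4 and 5 below induced 2 and 3, without overlap. The differences were -0.25 ± 0.10 and -0.18 ± 0.11, and neither passed the test. As for Chac1, this lack of overlap between runs is not read as a result.

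Ddit3, which encodes the pro-apoptotic factor CHOP, did not follow Chac1. Probe ILMN_2652909 read 131, 116, 127, 98.3 and 101.4 on uninduced 1 to 5, 89.8 on induced 1, and 113, 127, 92.8 and 93.6 on induced 2 to 5. High values were those of uninduced 1 to 3 and induced 2 and 3, low ones those of uninduced 4 and 5 with induced 1 and of induced 4 and 5. Its matched difference was -0.07 ± 0.06 (adjusted p = 0.399, 95% interval -0.21 to 0.08). The run differences were -0.28 ± 0.09 (adjusted p = 0.0790) and -0.32 ± 0.10 (adjusted p = 0.0889), neither past the threshold. The dimmer probe ILMN_2927373 went the other way and read 61.2 to 73.3 on uninduced 1 to 5, 48.2 on induced 1 and 80.1 to 98.9 on induced 2 to 5. Its matched difference of 0.32 ± 0.08 passed the test (adjusted p = 0.00591), so the 2 probes of Ddit3 disagree and no direction is given for the gene.

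Trib3, a pseudokinase that ATF4 and CHOP induce and that restrains them, read 122, 159.7, 126, 139 and 138 on uninduced 1 to 5, 124 on induced 1, and 100.1, 104, 114 and 112 on induced 2 to 5. The last 4 lay below the rest, by a margin smaller than the spread of uninduced 1 to 5. The matched difference was -0.31 ± 0.08 (adjusted p = 0.0104), and it was -0.27 ± 0.09 in the comparison of labels, which did not pass (adjusted p = 0.0547). Within run 2 alone it did not pass either (-0.26, adjusted p = 0.113).

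Of the enzymes, Mthfd2, the mitochondrial folate dehydrogenase that feeds the formate supply, read 1072, 950.1, 1120.3, 919 and 1015 on uninduced 1 to 5, 921 on induced 1, and 574, 529.9, 499 and 585 on induced 2 to 5. There was no overlap between induced 2 to 5 and the rest. The matched difference was -0.86 ± 0.08 (adjusted p = 5.45e-05), nearly equal in run 1 (-0.90) and run 2 (-0.82). Psat1, the aminotransferase of the serine pathway, read 8272, 8181, 7672, 7946 and 7577 on uninduced 1 to 5, 7946 on induced 1 and 5739, 5422, 5126 and 6079 on induced 2 to 5. Its matched difference was smaller, -0.50 ± 0.07 (adjusted p = 0.000426), and its run differences were -0.05 and 0.00.

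Asns, asparagine synthetase and the textbook amino acid response gene, showed another pattern from Chac1. Probe ILMN_2643513 read 7560.3, 7414 and 8232 on uninduced 1 to 3, then 10674 and 11543 on uninduced 4 and 5 and 11812 on induced 1. On induced 2 and 3 it read 6101 and 6920, and on induced 4 and 5 it read 9837 and 9200.4. Uninduced 4 and 5 were therefore higher than uninduced 1 to 3, and induced 4 and 5 higher than induced 2 and 3, without overlap. Induced 1, a run 1 array by its title, stood with uninduced 4 and 5. The rise was 0.52 ± 0.09 within uninduced (adjusted p = 0.0104) and 0.55 ± 0.10 within induced 2 to 5 (adjusted p = 0.0129). Probe ILMN_3006123 rose by 0.61 and 0.60, and probe ILMN_2636755 by 0.73 and 0.98, and all 4 differences passed the test.

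Against this rise the set difference of Asns was small. It was -0.24 ± 0.07 at matched runs for ILMN_2643513 (adjusted p = 0.0185) and -0.36 ± 0.06 for ILMN_3006123 (adjusted p = 0.000887). For ILMN_2636755 it was -0.00 ± 0.10 with a 95% interval of -0.23 to 0.22 (adjusted p = 0.993), so the probes disagree on it. Within run 1 or run 2 alone the difference of ILMN_2643513 did not pass (adjusted p = 0.0615 and 0.119). The run rise of ILMN_2643513 no longer passed without uninduced 5 (0.47, adjusted p = 0.0771), without induced 2 (0.46, adjusted p = 0.0930) or without induced 4 (0.50, adjusted p = 0.0690), each in the label it belongs to. Its set difference did not pass without uninduced 5 (-0.21, adjusted p = 0.0619), induced 2 (-0.19, adjusted p = 0.0713) or induced 5 (-0.21, adjusted p = 0.0565).

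**Figure D2:**
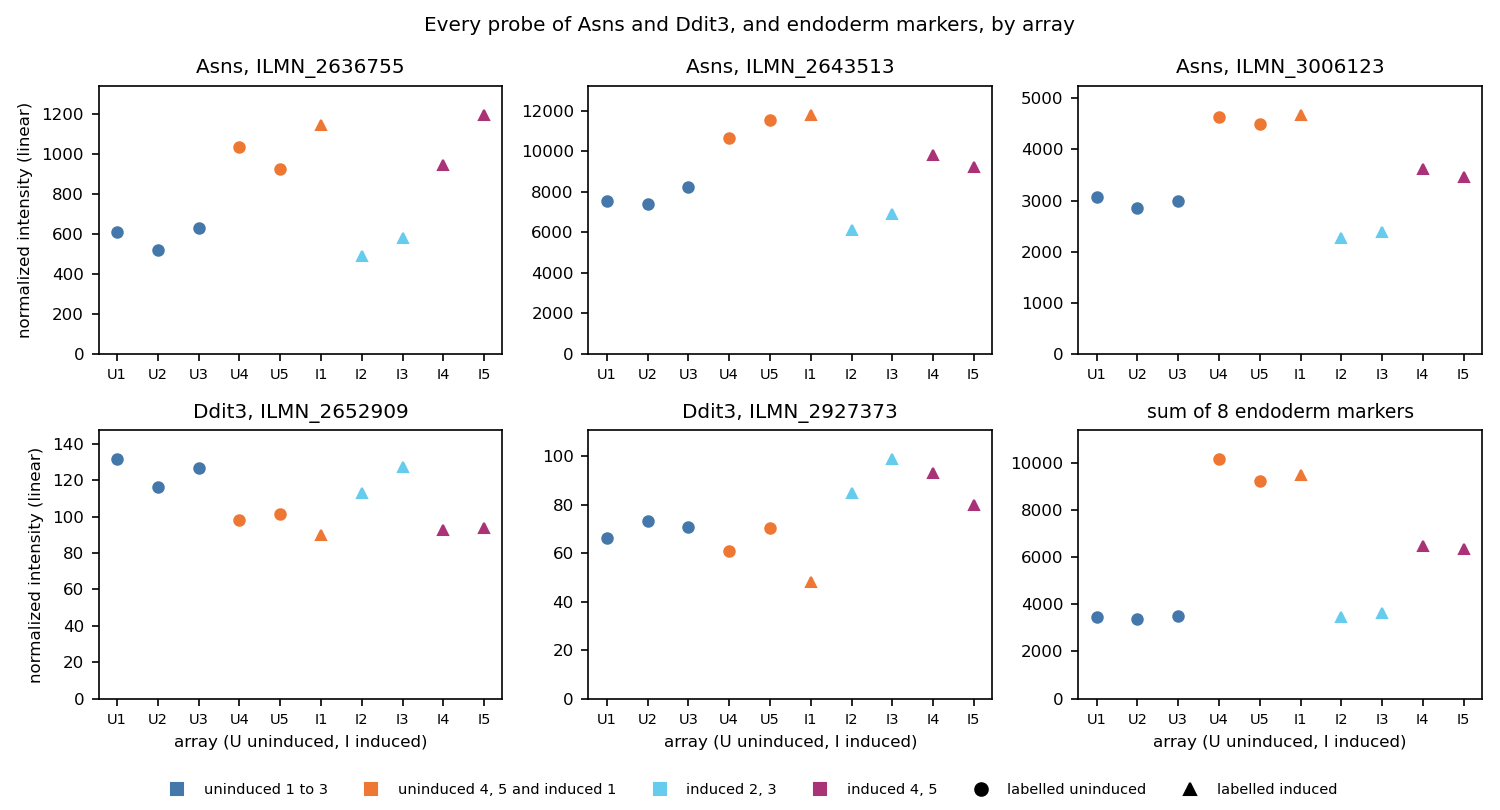
Normalized linear intensity of all 3 Asns probes and both Ddit3 probes, and the summed intensity of 8 extraembryonic endoderm markers, on uninduced arrays U1 to U5 and induced arrays I1 to I5 (1 point per array). The 3 Asns probes and the marker sum are higher on U4, U5, I1, I4 and I5 than on U1 to U3, I2 and I3, and the 2 Ddit3 probes differ from each other.

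Of 8 markers of extraembryonic endoderm (Gata6, Gata4, Sox7, Dab2, Lama1, Col4a1, Sparc and Foxa2), the summed intensity was higher on the same arrays as Asns, though not each marker was. The sum was 3369 to 3505 on uninduced 1 to 3, 9245 to 10170 on uninduced 4 and 5 with induced 1, 3453 to 3615 on induced 2 and 3, and 6361 to 6458 on induced 4 and 5. Foxa2 was too dim to be tested. Of the 7 tested, 5 rose from run 1 to run 2 within uninduced, beside 5.02% of all genes, and 3 within induced 2 to 5, beside 3.36%. Col4a1 (2.89 and 2.24), Gata6 (2.27 and 1.16) and Lama1 (1.85 and 1.14) rose in both. Sox7 rose within uninduced (0.90) and was at -0.26 within induced 2 to 5, and that gap passed the test (-1.15, adjusted p = 0.0285). Dab2 rose within uninduced (0.51) and was at 0.04 within induced 2 to 5, and Sparc was at 0.24 and -0.24. From uninduced 1 to 5 to induced 2 to 5 at matched runs, where most members fell, 5 of the 7 endoderm markers fell and 0 rose. Of all tested genes, 30.5% fell and 25.5% rose there. The markers' median was -0.53, and Sox7 (-1.07), Dab2 (-0.88) and Gata6 (-0.72) were among those that fell. The marker falls were mainly those of run 2, where 5 fell and 0 rose (median -0.86, beside 21.5% of all genes lower). Within run 1 alone 2 markers fell and 1 rose (median -0.17, beside 22.4% lower). Of the 10 members, 8 fell in run 1 and 6 in run 2. The part that cells of this type have in these differences of Asns and the other members was not tested, and in these bulk samples a change in the share of cells and a change in RNA per cell cannot be told apart.

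Sesn2, a sestrin that restrains the growth kinase mTORC1 when leucine is short, read 345, 328, 307, 310.3 and 272 on uninduced 1 to 5 and 273 on induced 1 (probe ILMN_2948945). On induced 2 to 5 it read 146, 194, 132 and 199, so that induced 3 and 5 stood above induced 2 and 4. The matched difference was -0.84 ± 0.12 (adjusted p = 0.000524). The dimmer probe ILMN_1219984 read 59.8 to 70.4 on uninduced 1 to 5, 65.6 on induced 1 and 36.0, 32.0, 19.0 and 48.7 on induced 2 to 5. It fell by a similar -0.72 ± 0.16 (adjusted p = 0.00398). Sesn2 is also a p53 target.

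Counted together by the brightest probe of each, 9 of the 10 genes fell from uninduced 1 to 5 to induced 2 to 5 at matched runs, 0 rose, and Ddit3 did not pass. By other probes the count is less even. Asns probe ILMN_2636755 did not pass (-0.00) while ILMN_3006123 fell (-0.36), and Ddit3 probe ILMN_2927373 rose (0.32). In this contrast 30.5% of all 10087 tested genes fell and 25.5% rose, so changes were widespread, and the set difference touched 56.0% of genes in all. The filter favours falls in these shares, since a dim gene above the background limit only on induced 2 to 5 was not tested. The median difference was -0.67 over the 10 members and -0.02 over all tested genes. Within run 1 alone 8 members fell (22.4% of all genes) and within run 2 alone 6 (21.5%). Taking values without any fit, 8 of the 10 members had all of induced 2 to 5 below all of uninduced 1 to 5, beside 19.5% of all genes. The members were chosen with earlier results of these data known, so these counts and medians, and those that follow, describe the chosen genes. They are not independent support for a fall of the programme.

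In the plain comparison of labels, with induced 1 counted as induced, 7 members fell, 0 rose and 3 (Asns, Trib3 and Ddit3) did not pass. There 11.0% of all genes fell and 8.43% rose. The members' median was -0.56, beside -0.01 over all genes. In this comparison Chac1 fell by 2.43 ± 0.50 (adjusted p = 0.0209), Nupr1 by 1.16 ± 0.22 (adjusted p = 0.0206), Atf4 by 0.40 ± 0.10 (adjusted p = 0.0265) and Psat1 by 0.40 ± 0.11 (adjusted p = 0.0340). Only Atf4 and Nupr1 had all 5 arrays labelled induced below all 5 labelled uninduced (3.91% of all genes). For 6 of the 10 members induced 1 lay inside the range of uninduced 1 to 5. The share of all genes for which this holds was not computed, so the count is not read as a result about the members. With the array set as a block 0 members were called, and Chac1 stood at -0.06, a value that rests on induced 1 alone. Leaving out uninduced 1, 2 or 3 or induced 2, 4 or 5 also brought the 7 calls to 0, and leaving out induced 1 brought them to 8.

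Between runs only Asns passed the test, the 1 gene of the 10 that rose within uninduced (5.02% of all genes rose) and within induced 2 to 5 (3.36%). In each of the 2 contrasts 0 members were called lower, while 5.03% and 5.01% of all genes were. Ddit3, by its brighter probe, stood at -0.28 and -0.32 without passing. At an unadjusted limma p under 0.05 there were 4 members within uninduced and 3 within induced 2 to 5, beside 3826 and 3069 of 14985 probes. For the run difference to differ between the labels limma called 0 members (1 at an unadjusted p under 0.05) and 0.0198% of all genes.

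**Figure D3:**
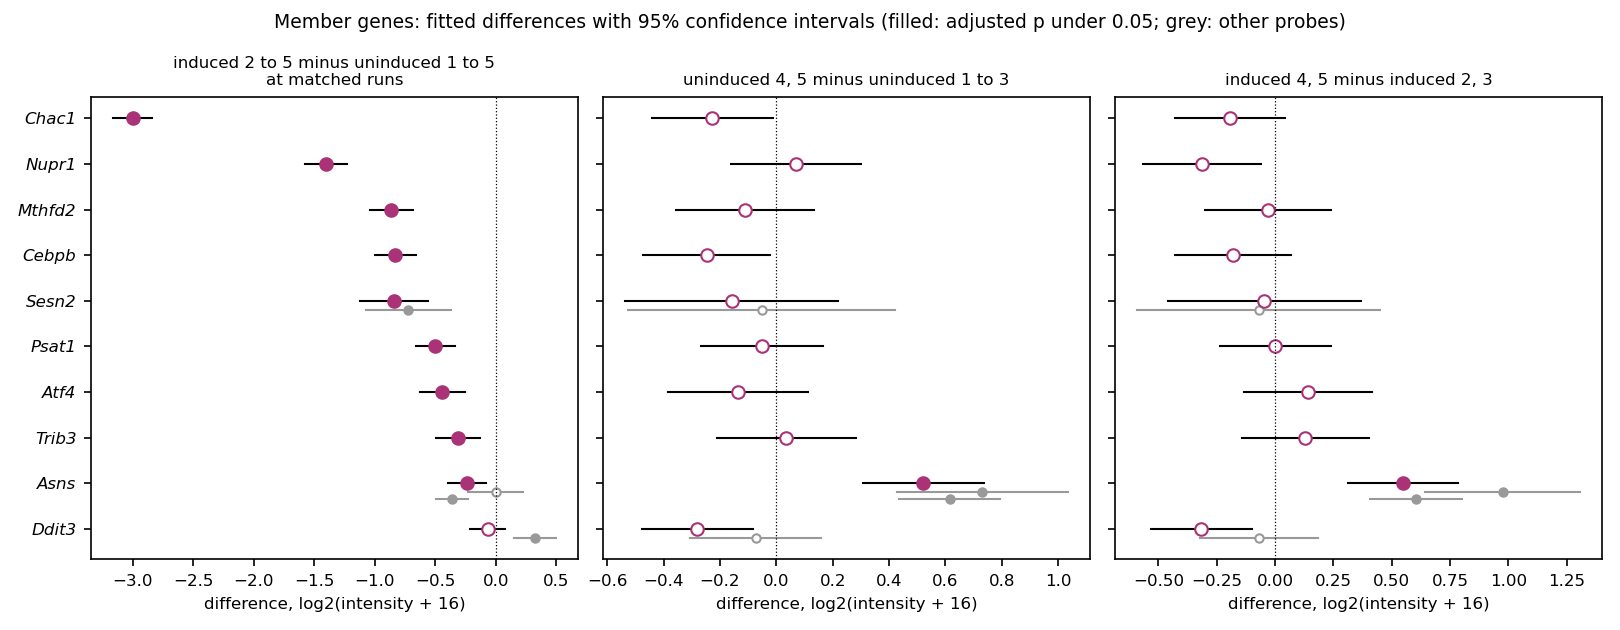
Fitted differences of each member on the scale log2(intensity + 16) with 95% confidence intervals, for induced 2 to 5 minus uninduced 1 to 5 at matched runs and for run 2 minus run 1 within each label; large points are the probe with the highest mean, grey points other probes, and filled points passed an adjusted p of 0.05. The set difference runs from -3.002 for Chac1 to -0.07 for Ddit3, whereas between runs only Asns passed.

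How the difference of each member divides can be put as a share of its spread over the 10 arrays on the log2 scale, as a description. For Chac1, 99.3% of the sum of squares lay between the array sets, and for Nupr1, Mthfd2, Psat1 and Cebpb it was 95.8%, 94.5%, 93.1% and 90.5%. It was 84.3% for Sesn2, 75.1% for Atf4 and 65.5% for Trib3. For Asns it was 15.8%, and for Ddit3 1.66%, and the title groups within sets added 79.4% and 85.9%. Asns and Ddit3 (by its brighter probe) thus varied with the title groups in opposite directions, Asns being high where Ddit3 was low.

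The wider pathway was read from lists chosen by role, with earlier results of these data known, so their counts are not independent support. Their counts and medians at matched runs stand beside 30.5% of all tested genes lower, 25.5% higher and a median of -0.02. Upstream, 5 of 7 kinase and phosphatase genes of eIF2alpha were tested. At matched runs Eif2ak3, the kinase PERK of the endoplasmic reticulum, rose (0.31 ± 0.08). Ppp1r15a, the stress-induced phosphatase subunit that ATF4 and CHOP raise, fell (-0.30 ± 0.07), as did the heme-sensing kinase Eif2ak1 (-0.24 ± 0.08). The list's median was -0.14.

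Of 7 tested partner factors of the ATF and C/EBP families 6 fell and 0 rose (median -0.34). Atf3, a stress-induced repressor, read 31.9 to 51.7 on uninduced 1 to 5 and 39.5 on induced 1, and 14.5, 15.4, 6.03 and 8.21 on induced 2 to 5, the last 2 under the background limit of 10.6 (adjusted p = 4.35e-05). Jund, an AP-1 factor, fell by 1.85 ± 0.10, and Jun by 0.30 ± 0.09. Jdp2, an AP-1 repressor, fell by 0.82 ± 0.10 on the mean of both runs, but it also rose between runs, by 0.86 within uninduced and 1.94 within induced 2 to 5. It read 13.2 and 9.43 on induced 2 and 3 and 86.2 and 91.4 on induced 4 and 5, beside 43.7 to 61.7 on uninduced 1 to 3 and 102 and 122 on uninduced 4 and 5.

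Among 12 tested enzymes of amino acid synthesis and folate metabolism, 7 fell and 2 rose at matched runs (median -0.30). Gpt2, the mitochondrial alanine transaminase, fell by 1.29 ± 0.08 and Aldh18a1, which starts proline synthesis, by 1.09 ± 0.06. Aldh1l2, a mitochondrial folate dehydrogenase, fell by 1.07 ± 0.10 and Cth, which makes cysteine from cystathionine, by 1.05 ± 0.07. Aldh18a1 read 1031 to 1172 on uninduced 1 to 5, 1105 on induced 1 and 492 to 523.5 on induced 2 to 5.

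Of 8 tested amino acid carriers 5 fell and 0 rose at matched runs, with a median of -0.56. Slc1a4, a neutral amino acid carrier, read 538 to 742 on uninduced 1 to 5, 713 on induced 1 and 125 to 141 on induced 2 to 5 (-2.15 ± 0.07, adjusted p = 9.13e-07). Slc6a9, a glycine transporter, fell by 1.72 ± 0.08 and the glutamine carrier Slc1a5 by 0.75 ± 0.12. Slc7a1, a carrier of arginine and lysine, was under the background limit on 1 of 5 arrays labelled uninduced and on all of induced 2 to 5, so no fold is given. It entered the test only through the arrays where it was high, so its call (limma adjusted p = 0.0185), 1 of the 5 falls, is not used as support.

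Of 8 tested genes of glutathione turnover and NRF2, a factor of the oxidative stress response, 3 rose and 1 fell (median 0.09). Gclm, the regulatory subunit of glutathione synthesis, fell by 0.56 ± 0.09. Glutathione synthetase Gss rose by 0.39 ± 0.09, thioredoxin reductase Txnrd1 by 0.37 ± 0.09 and Ggct, a cyclotransferase that acts on gamma-glutamyl amino acids, by 0.23 ± 0.07.

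Growth brakes and secreted stress factors were mixed, with 3 of 11 up and 4 down at matched runs (median -0.09). Vldlr, a lipoprotein receptor that ATF4 raises, read 280.3 to 365 on uninduced 1 to 5 and 377 on induced 1, and 77.3, 100.3, 19.8 and 18.9 on induced 2 to 5 (-2.49 ± 0.08, adjusted p = 1.34e-06). Gadd45b and Gadd45a, which act in growth arrest, rose by 0.79 ± 0.09 and 0.40 ± 0.07. Fgf21, a secreted metabolic hormone, was dim (14.5 to 18.0 on uninduced 1 to 5) and under the limit on induced 2 to 5, a fall of at least 1.54-fold (adjusted p = 0.000876). Fgf21 too entered the test only through the arrays where it was high, so its call is not used as support. Between the runs, Ddit4, Pmaip1 and Stc2 were singled out after their values were seen. Ddit4, an inhibitor of mTORC1, read 1254 to 1473 on uninduced 1 to 3 and 449 to 560.0 on uninduced 4 and 5 with induced 1. It read 1450 and 1703 on induced 2 and 3 and 528 and 543 on induced 4 and 5. Its run differences were -1.43 ± 0.12 within uninduced and -1.52 ± 0.13 within induced 2 to 5. Those of Pmaip1, which encodes the death factor Noxa, were -1.499 ± 0.14 and -1.38 ± 0.15. Within induced 2 to 5 Vldlr (-1.56) and Stc2 (-1.21), a secreted glycoprotein, fell too.

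Chaperone genes of the IRE1 and ATF6 arm of the unfolded protein response showed no common direction. Of 13 tested 5 rose and 4 fell at matched runs (median 0.14). Xbp1, the factor that IRE1 activates by splicing, rose by 0.48 ± 0.06 and Edem1, which directs misfolded glycoproteins to degradation, by 0.36 ± 0.09. The calcium-binding chaperone Calr fell by 0.53 ± 0.12 and Herpud1, a degradation factor also reached by ATF4, by 0.47 ± 0.07. Hspa5, the central chaperone of the compartment, read 150 to 226 on uninduced 1 to 5, 267 on induced 1 and 159 to 304 on induced 2 to 5, so the groups overlap, and it is named after its values were seen. In the comparison of labels fewer genes passed. Lower were 4 of 12 enzymes, 2 of 7 partner factors and 2 of 8 carriers. So were 2 of 11 growth brakes and 1 of 8 glutathione genes, beside 11.0% of all genes. Higher were 2 of 13 chaperone genes, 2 of 11 growth brakes and 1 of 8 glutathione genes, beside 8.43%. Several of these small counts lie near those shares.

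**Figure D4:**
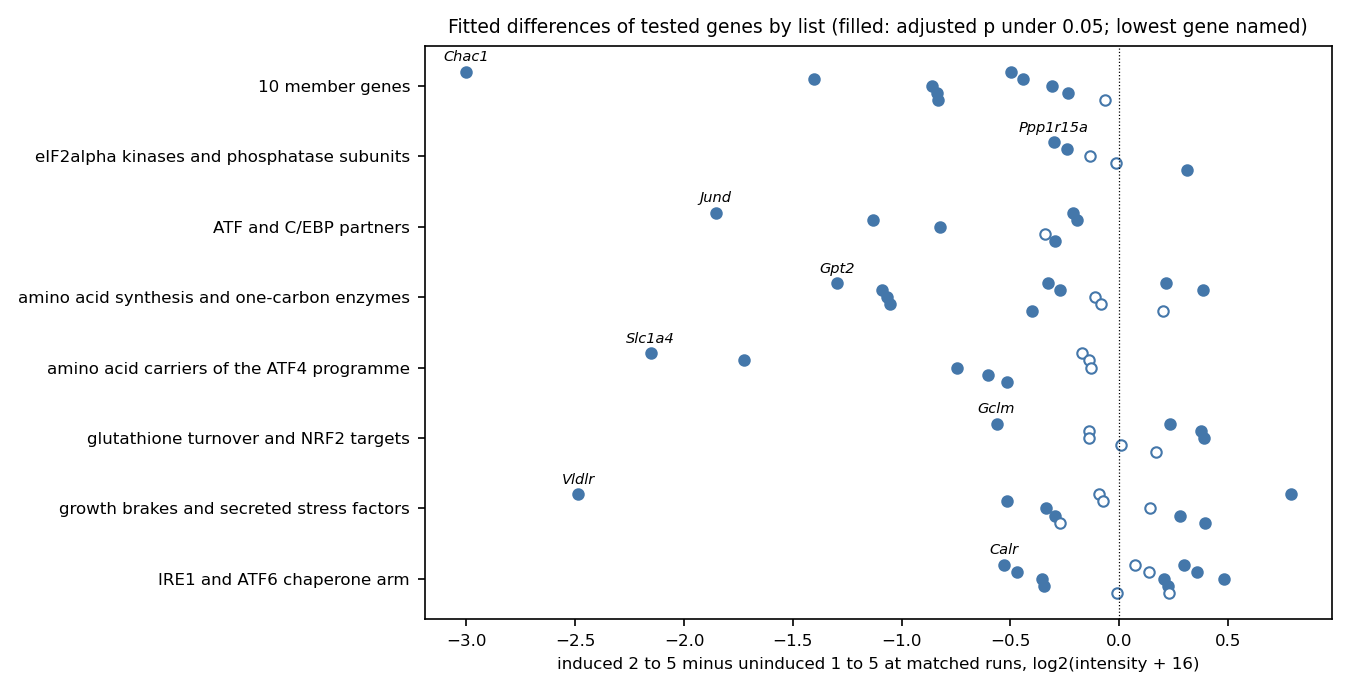
Fitted difference of every tested gene in each list, induced 2 to 5 minus uninduced 1 to 5 at matched runs, on the scale log2(intensity + 16); each point is 1 gene, filled points passed an adjusted p of 0.05, and the lowest gene of each list is named. Carriers lie at or below -0.13, whereas chaperone genes lie on both sides of 0, from -0.53 to 0.48.

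Embryonic stem cell markers (Pou5f1, Nanog, Sox2, Zfp42, Esrrb, Dppa5a, Tdgf1 and Utf1) were all above background on every array, and their summed intensity of 48300 to 53650 over the 10 arrays lay within a narrow range. Of the 8, 1 rose and 3 fell at matched runs, beside 25.5% and 30.5% of all genes. These counts are not read as a result about the markers. Of 8 embryonic fibroblast markers, which could enter from a feeder layer, Lum, Dcn, Postn and Col3a1 were under the background limit on all 10 arrays. The sum of the 8 was 290.0 to 312 on uninduced 1 to 3, 163 to 172 on uninduced 4 and 5 with induced 1, 82.2 to 92.1 on induced 2 and 3 and 34.6 to 59.2 on induced 4 and 5. Thy1 made up most of that sum, with 152 to 277 on uninduced 1 to 5 and 39.3 to 92.2 on induced 2 to 5. Col1a1 and Col1a2 were too dim to be tested, and Prrx1 read 5.0 to 21.3 over all arrays. The sum is therefore mainly a reading of Thy1 and is not read as a share of feeder cells. The part of this difference in the member genes was not tested.

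Likeness to Chac1 was measured as Pearson's r on the log2 scale over the 10 arrays, among tested genes that are not members. The arrays fall into separate sets, so a high r says mainly that a gene has the same gap between them. The 5 highest were Tnfrsf11a (0.995), Insl6 (0.994), Aldh18a1 (0.993), Gpr19 (0.993) and Triml1 (0.993). Of these, Aldh18a1 is in the enzyme list above. Tnfrsf11a, the receptor RANK, read 28.1 to 47.2 on uninduced 1 to 5, 33.6 on induced 1 and under the background limit on induced 2 to 5, at least 3.31-fold lower. Tnfrsf11a entered the test only through the arrays where it was high, so its r and its fall are not used as support. The 5 most like Sesn2 were Ncmap (0.992), Kif3a (0.990), Sclt1 (0.988), Prr36 (0.986) and Zc3h13 (0.982). They were picked for this likeness, so a shared pattern follows from the choice. Sclt1 was under the background limit on 3 of induced 2 to 5, so its order there is not read. Kif3a, a kinesin subunit, read 372, 460.4, 363 and 514 on induced 2 to 5. Zc3h13, which belongs to the m6A writer complex, read 518, 1103, 386 and 716 there, and 1927 to 2540 on uninduced 1 to 5.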

How the data were processed

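RNA was amplified to biotinylated cRNA and read on Illumina bead arrays, per the labels' protocols. The deposited intensity values are linear, and 25.5% lie below 0, so the authors' values look background-subtracted. Their 75th percentile is 250.0 on every array, so they are normalized between arrays, by a method not given in the sources used here. A table without normalization, with 20 columns that match no label, was not used. The log2 scale is log2(intensity + 16), with values below 0 taken as 0. A probe was tested if it exceeded the background limit of 10.6 (the 95th percentile of noise with an SD of 6.45, from values below 0 mirrored about 0) on at least 5 of 10 arrays: 14985 probes, 10087 genes. A gene stands for its probe with the highest mean. Of 25697 probes, 23978 carry a symbol and 1719 none. Tests were limma 3.58.1 in R 4.3.3 (lmFit, eBayes, two-sided, Benjamini-Hochberg over all tested probes, threshold 0.05), and the fits were tested on simulated data. Errors after ± are SE for differences and SD for intensities. Array number limits the precision. The fit with 5 means has 5 residual degrees of freedom. Array sets came from the largest gap on the first principal component of receptor probes.

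Members, lists, sets and tests were chosen with earlier results of these data known. Named genes are all members, up to 4 genes of each list with the largest called change at matched runs (otherwise the most intense), and the 5 genes most like Chac1 and Sesn2. Alternatives were the added constant, the filter, the limit, an intensity trend, quantile normalization, blocks, array weights and leaving out each array. Quantile normalization left the members' fitted differences by their brightest probe unchanged as rounded, so it adds little as an alternative. Comparisons within a single run were added after seeing the data. Promoter windows are from RefSeq, GRCm38.p6. Plots used matplotlib 3.10.9 in Python 3.11.15.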

Additional observations from a re-analysis of the deposited data

Results flagged for a closer look

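Chac1 (1814), Nupr1 (723) and Mthfd2 (921) were each set apart on the array labelled induced 1, which lay far above the other 4 arrays labelled induced. The gap to the nearest of them divided by the range of the group, on the log2 scale, was 0.935, 0.738 and 0.742. These were 3 of 28 groups looked at (14 probes in 2 labels), and chance alone flags about 1 group in 20. The same array read inside or near the uninduced range for all 3 genes.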

How the results depend on the processing

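At matched runs the counts stayed within 1.5 times of the 8388 probes and 9 members under all alternatives run. With 1 array left out they were 7248 to 8388 probes and 8 to 9 members, and 6161 and 5713 probes and 8 and 6 members in run 1 and run 2 alone. For the members' values in that contrast, 165 alternative values kept direction and side of the threshold, 8 lost the call and 1 turned, the second Ddit3 probe (0.32).

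The comparison of labels (2919 probes, 7 members) was fragile. With the array set as a block 0 probes and 0 members were called, Psat1 turned to 0.004 and Asns to 0.403. Without the filter on dim probes there were 549 probes and 0 members, and array weights gave 7313 probes. Leaving out 1 array gave 14 to 6821 probes and 0 to 8 members, and Asns stood between -0.184 and 0.054. The other probes of Asns (0.19) and Ddit3 (0.17) lay on the other side of 0.

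Within uninduced (1387 probes) the runs differed at 2093 probes with 50 added, 2130 with an intensity trend and 660 to 1387 with 1 array left out, with 0 to 1 members. Within induced 2 to 5 (1121 probes) the range was 573 to 1121, with 0 to 1 members. Leaving out 1 array turned the sign of small run differences, which ranged from -0.029 to 0.144 for Trib3 and -0.035 to 0.174 for Nupr1 within uninduced. Within induced 2 to 5 they ranged from -0.141 to 0.082 for Mthfd2, -0.122 to 0.124 for Psat1, -0.314 to 0.222 for Sesn2 and -0.019 to 0.301 for Atf4. For the difference of the run effect, 2 probes became 46 with 50 added, 36 without the filter, 9 with the stricter limit, 81 with an intensity trend and 0 to 2 with 1 array left out. The causes were not tested.

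With the title number as a replicate block, the labels differed at 3344 probes and 7 members, and it changed no member's call. Deviations of same-numbered arrays correlated at -0.06, 0.31, 0.29, 0.30 and 0.31, and 1 of 5 arrays labelled uninduced correlated best with its own number, so the numbers were not taken as pairs.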
